A study of Mus musculus with 45 samples.

Results

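The DNA copy number of 4 mouse genes, Myc, Mycn, Mycl1 and Max, was examined in 45 mammary tumors by array comparative genomic hybridization. Probes were taken by the gene name printed in the array files. This gave 5 probes out of 42235 on the autosomes and chromosome X, with 1 probe each for Myc, Mycn and Mycl1 and 2 for Max. The 4 names stood among 20093 names on autosomal probes. In the mm8 assembly the Myc probe lies at chr15:61816154-61816213, the Mycn probe at chr12:12964272-12964331 and the Mycl1 probe at chr4:122502859-122502915. The Max probes lie at chr12:77861470-77861529 and chr12:77869291-77869350. Whether these probes fall in exons or introns was not determined, because no mm8 annotation was used here.

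Myc, Mycn and Mycl1 encode related transcription factors of the basic helix-loop-helix leucine zipper class that drive growth and cell division. Each binds DNA at E-boxes as a pair with Max, a small partner that also pairs with the Mxd proteins, Mnt and Mga, which oppose Myc at shared sites. Extra copies of MYC are common in breast cancer, MYCN is best known for amplification in neuroblastoma, and MYCL for amplification in lung cancer.

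The tumors were primary tumors from female mice of 8 models, and 5 were labelled MMTV-c-Myc (MMTV-Myc hereafter), a line in which the mouse mammary tumor virus promoter, active mainly in mammary epithelium, drives Myc. The labels name no Myc transgene for the other 40 tumors. These were 9 MMTV-PyMT (the polyomavirus middle T antigen), 5 MMTV-Her2/neu, 5 MMTV-H-Ras (MMTV-HRas hereafter), 5 MMTV-Wnt1 and 5 C3(1)/SV40 T/t-antigens (C3(1)-Tag hereafter), in which a rat steroid-binding protein promoter drives the viral antigens. The rest were 5 BRCA1fl/fl;p53+/-;MMTV-cre tumors (BRCA1-/-;p53+/- hereafter) and 6 p53fl/fl;MMTV-cre transplants (p53-/- hereafter), in which the MMTV promoter drives the Cre recombinase that deletes the floxed gene. Tumor DNA was hybridized against pooled mouse spleen DNA, and the labels give neither strain nor age. No source says that the tumors of a model came from separate animals, so p-values measure only the spread between these samples.

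Values are log2 ratios of the Cy3 over the Cy5 signal, shifted so that the autosomal probes of every array have a median of 0. The labels place tumor DNA in Cy5, which is the opposite direction. The Cy3 over Cy5 direction was used for the following reasons. Of 5412 deposited copy number intervals 755 passed a filter, and 740 of these carried the sign opposite to Cy5 over Cy3. In addition, a probe in Brca1 at chr11:101340828-101340887 read -3.97 ± 1.40 (SD, n = 5) in the BRCA1-/-;p53+/- tumors. The arrays lay on 18 slides with at most 4 on a slide, and between 96.5 and 99.8% of probes on an array were well above background. The SD of single probes around their neighbours ranged from 0.16 to 0.48 log2 units between arrays. The share of tumor cells in each DNA was not given, so fewer cells with a gain and fewer extra copies per cell cannot be told apart. A pair of arrays with different labels, C3TAg_5RPT (C3(1)-Tag) and H2N53 (MMTV-Her2/neu), had nearly the same profile (r = 0.96 over 2057 bins of 1 Mb). A second such pair was C3TAg_7RPT and H2N61 (r = 0.93), and the next closest pair reached 0.82. The counts of tumors with a gain at Myc or Mycl1 and with a whole gain of chromosome 15 or 4 are given below with and without these 4 arrays.

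The Myc probe was not raised as a group in the tumors labelled MMTV-Myc, and it was highest in a p53-/- tumor and in tumors labelled MMTV-PyMT. Among the 5 tumors labelled MMTV-Myc the log2 ratio of the Myc probe was 1.00 in C_Myc_04004021, 0.32 in C_Myc_04004022, 0.25 in C_Myc_04005648, -0.18 in C_Myc_043508 and -0.52 in C_Myc_4An7, with a mean of 0.17 ± 0.57 (SD). Among the 9 labelled MMTV-PyMT it was 3.34 in PyMt435, 2.59 in PyMt427, 2.56 in PyMt342, 1.78 in PyMt341, 0.79 in PyMt_3, 0.66 in PyMt_4_1, 0.65 in PyMt317, -0.06 in PyMT_11567 and -0.18 in PyMT_11570, with a mean of 1.35 ± 1.26. Thus 4 tumors labelled MMTV-PyMT lay above every tumor labelled MMTV-Myc, while the other 5 overlapped them. The Myc probe therefore went against the MMTV-Myc label, and these groups are called by their labels throughout. Whether the labels of these arrays hold was not tested, and every count by label rests on them. Whether the transgene carries the bases of this probe was not determined.

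In the other 6 models the Myc probe exceeded 1 only in P53_5851 and in the MMTV-HRas tumor Hras_An3_3. In the p53-/- tumors the lowest value was -0.68, the median -0.15 and the highest 5.80. The mean of 0.80 ± 2.50 (n = 6) thus rested on P53_5851 alone. MMTV-HRas tumors followed with 0.51 ± 0.43 (0.10 to 1.20, n = 5), then BRCA1-/-;p53+/- tumors with 0.22 ± 0.36 (-0.23 to 0.74), C3(1)-Tag tumors with 0.15 ± 0.23 (-0.15 to 0.42), MMTV-Her2/neu tumors with 0.04 ± 0.14 (-0.13 to 0.26) and MMTV-Wnt1 tumors with -0.07 ± 0.27 (-0.34 to 0.36). Neighbours in this order, from MMTV-PyMT down to MMTV-Wnt1, overlapped within their ranges.

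**Figure D1:**
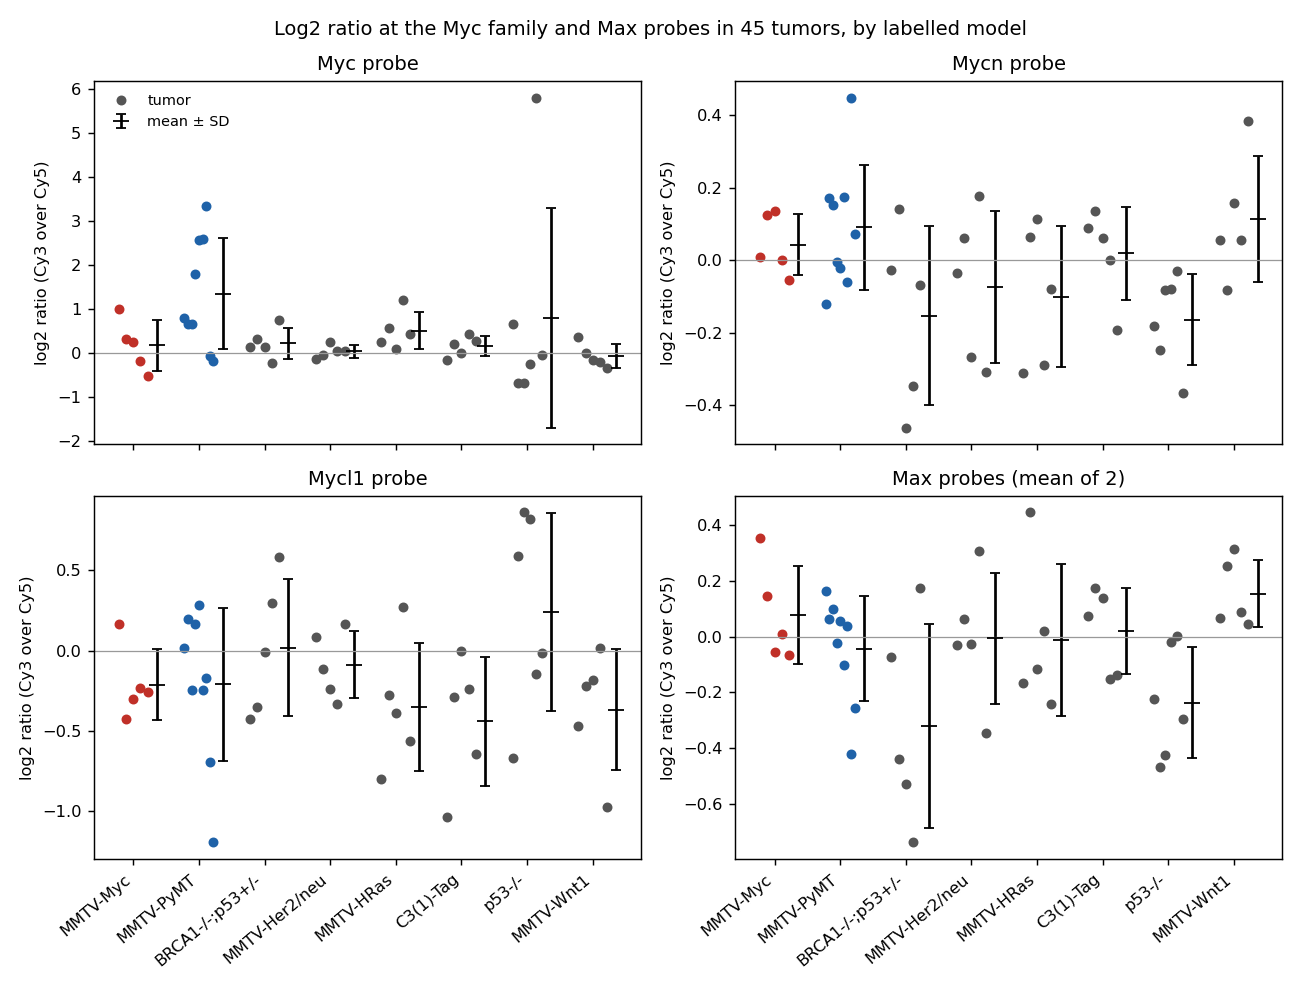
Log2 ratio (Cy3 over Cy5) at the Myc, Mycn and Mycl1 probes and the mean of the 2 Max probes, by labelled model, with 1 point per tumor and the mean ± SD to its right (n = 5, 9 or 6 tumors a model, 45 in all). The scale differs between the panels. Myc reached 5.80 in 1 p53-/- tumor and up to 3.34 in tumors labelled MMTV-PyMT, whereas Mycn stayed between -0.46 and 0.45.

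In limma's moderated test across all 42235 probes, none of the 5 probes differed between the tumors labelled MMTV-Myc and the other 7 models, at a Benjamini-Hochberg adjusted p of 0.05. Over the whole array 0.511% of probes were called in this comparison. The Myc probe was lower by 0.25 on the log2 scale in the tumors labelled MMTV-Myc (-0.25, SE 0.50, adjusted p = 0.910, limma), and none of the 5 probes had an unadjusted p under 0.05. Using only the slides that carried an MMTV-Myc array, the difference was -0.58 (adjusted p = 0.562, limma). With slide as a random block it was -0.37 (adjusted p = 0.88, limma).

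The tumors labelled MMTV-PyMT, compared with the other 6 models without a Myc transgene in the label, showed a higher Myc probe by 1.07 (SE 0.40), which did not pass the threshold (adjusted p = 0.161, limma). The share of probes called in this comparison was 0.902%. The call turned on P53_5851. In a fit without this tumor, added after seeing the data, the difference was 1.24 (SE 0.25) and the adjusted p was 0.0119 (limma). With the slide as a random block the difference was 1.13 (adjusted p = 0.206, limma), and with the scan date as a block 1.22 (adjusted p = 0.230, limma). Over 12 alternatives the adjusted p of this difference ran from 0.0119 to 0.981 (limma).

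The high values lay on particular slides. Slides 1 to 5 each held 1 array labelled MMTV-Myc and 1 labelled MMTV-PyMT, and within each slide the array labelled MMTV-PyMT had the higher Myc probe. The differences were 1.17 for PyMt317 against C_Myc_4An7, 1.97 for PyMt341 against C_Myc_043508, 1.56 for PyMt342 against C_Myc_04004021, 2.27 for PyMt427 against C_Myc_04004022 and 3.10 for PyMt435 against C_Myc_04005648. Their mean was 2.01 ± 0.74 (SD, n = 5). The 5 arrays labelled MMTV-PyMT on these slides averaged 2.19 ± 1.02 (0.65 to 3.34). The 4 on other slides averaged 0.30 ± 0.49 (-0.18 to 0.79), and 6 arrays of other models on slides 1 to 5 averaged 0.03 ± 0.17. A raised Myc probe thus did not extend to the other models on these slides. Leaving out the 5 slide-sharing arrays labelled MMTV-PyMT, also chosen after seeing the data, the MMTV-PyMT difference was 0.03 (adjusted p = 0.981, limma). What separates the MMTV-PyMT arrays of these slides from those of other slides was not tested.

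**Figure D2:**
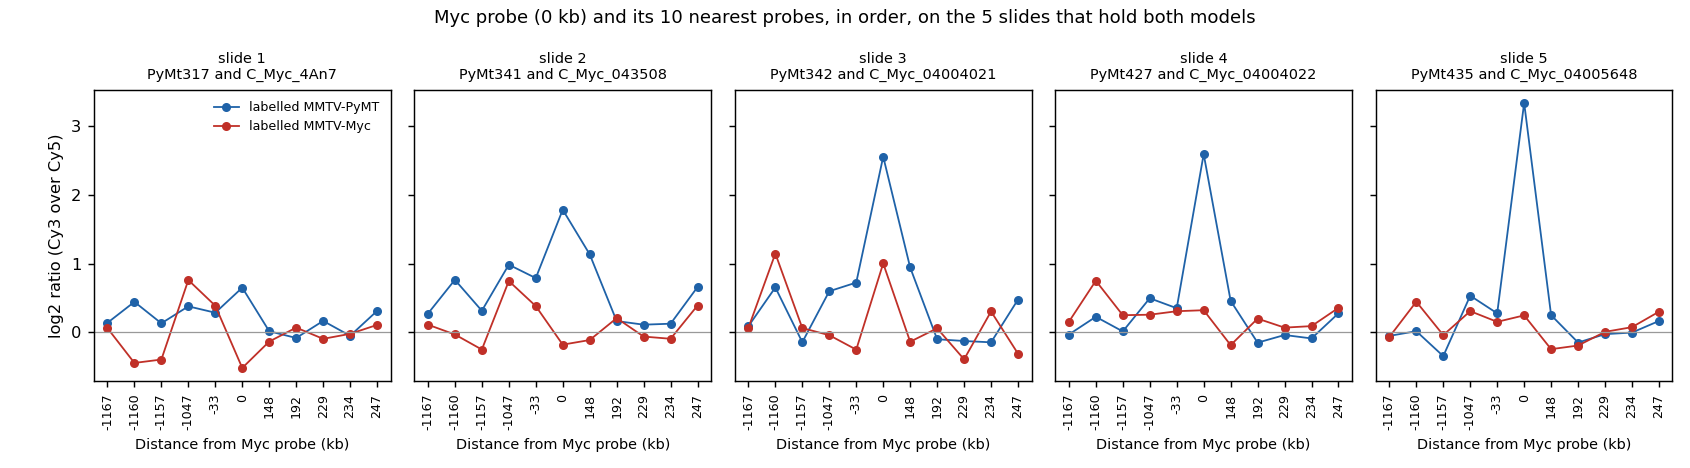
Log2 ratio (Cy3 over Cy5) of the Myc probe, at 0 kb, and of its 10 nearest probes in map order, for each of the 5 slides that held an array of both labels. Positions are evenly spaced and marked with the distance in kb, blue is the array labelled MMTV-PyMT and red the array labelled MMTV-Myc. On slides 4 and 5 the Myc probe stands alone at 2.59 and 3.34, whereas on slide 2 its neighbours are raised as well.

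On slides 1 to 5 the Myc probe of the arrays labelled MMTV-PyMT exceeded the mean of its 10 nearest probes by 3.28 in PyMt435, 2.45 in PyMt427, 2.26 in PyMt342, 1.25 in PyMt341 and 0.48 in PyMt317. The 10 nearest probes reach from 1167 kb before the Myc probe to 247 kb after it, with the closest 32.6 kb away, so a change shorter than this spacing rests on the Myc probe alone. In PyMt435 the mean of the 10 nearest probes was 0.06 against 3.34 at Myc, and no other autosomal probe of that array was higher. In PyMt427 it was 0.15 against 2.59 (rank 4 of 40666 autosomal probes) and in PyMt342 it was 0.30 against 2.56 (rank 49). In PyMt341 it was 0.53 against 1.78, together with a gain along chromosome 15. The single MMTV-Myc array with a high Myc probe, C_Myc_04004021, had a mean of 0.05 around a value of 1.00, and 3.02% of its autosomal probes were as high or higher.

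**Figure D3:**
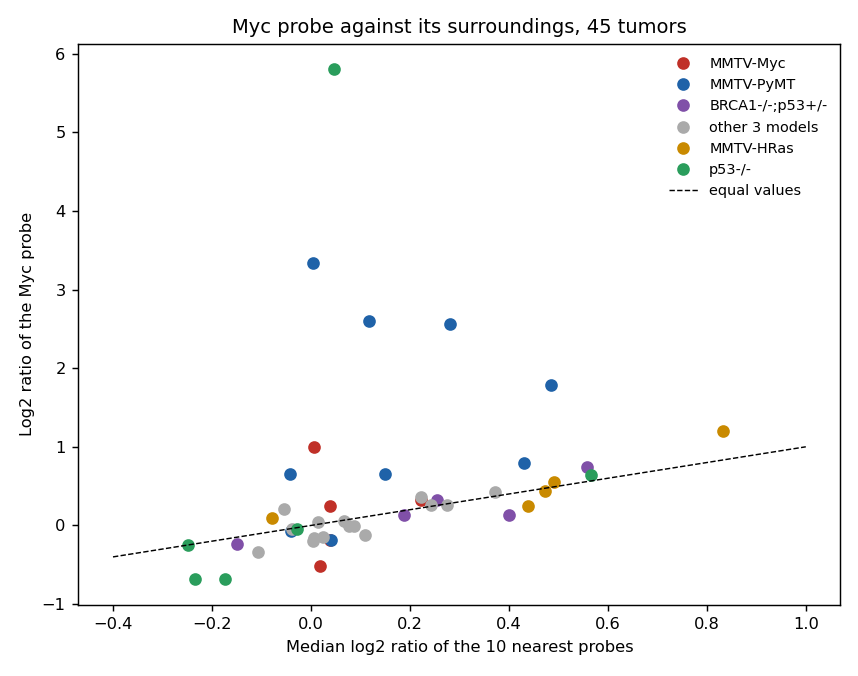
Log2 ratio (Cy3 over Cy5) of the Myc probe (vertical) against the median log2 ratio of its 10 nearest probes (horizontal) in 45 tumors, coloured by labelled model, with a dashed line of equal values. Most tumors lie near the line, and 4 tumors labelled MMTV-PyMT and P53_5851 lie far above it, with Myc values of 1.78 to 5.80.

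In P53_5851 the Myc probe had a processed Cy3 signal of 33034 against a Cy5 signal of 614, both well above background and neither saturated. Over all 45 arrays the Cy5 signal of this probe ranged from 358 to 1041 with a median of 772. The high ratio thus came with a Cy3 signal above that of the other arrays and a Cy5 signal inside their range. The probe 32.6 kb before Myc, at chr15:61783521, gave -6.27 in the same tumor, and -6.21, -5.99 and -5.64 in P53_5817, P53_8546 and P53_1573. In these 4 arrays its Cy3 signal was not well above background, so these values are only bounds. In the other p53-/- tumors it read 0.42 in P53_2979 and 0.57 in P53_5809, and no array of another model was below background there. Extreme probes were frequent in the p53-/- arrays, with 102 to 154 autosomal probes at a log2 ratio of 3 or more per array, against 0 to 7 in the arrays labelled MMTV-Myc and 0 to 32 in those labelled MMTV-PyMT. Single arrays of other models lay in the range of the p53-/- arrays, with up to 126 in MMTV-Her2/neu, 111 in C3(1)-Tag and 108 in BRCA1-/-;p53+/- tumors. Their part in the value at Myc was not tested.

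Whether the gene stood out from its own surroundings was compared between the label groups by an exact two-sided permutation test over all 1221759 assignments of 5 tumors among 45. The Myc probe exceeded the mean of its 10 nearest probes by 0.07 ± 0.57 (SD, n = 5) in tumors labelled MMTV-Myc and by 0.40 ± 1.23 (n = 40) in the others (exact permutation p = 0.574, adjusted over the 4 genes 0.596). The differences between the groups were 0.05 for Mycn (exact p = 0.430), -0.08 for Mycl1 (exact p = 0.596) and 0.15 for Max (exact p = 0.264). None of the 4 genes passed the threshold. The surroundings of Myc include the probe that was not well above background in 4 p53-/- arrays, which raises the excess in those tumors. With only probes well above background on every array the difference between the groups was -0.27 (adjusted permutation p = 0.902).

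Copy number gain was then called by segments, with each array divided into stretches of at least 5 probes and a segment mean of 0.2 or more called gained and of -0.2 or less lost. Among the 40 tumors without a Myc transgene in the label, 16 had a gained segment at Myc (40%, exact binomial 95% interval 24.9 to 56.7%), against 14.9% of autosomal probe calls over the same tumors. The gains fell in 6 of 9 MMTV-PyMT, 4 of 5 MMTV-HRas, 3 of 5 BRCA1-/-;p53+/-, 1 of 5 MMTV-Her2/neu, 1 of 5 C3(1)-Tag, 1 of 6 p53-/- and 0 of 5 MMTV-Wnt1 tumors. None of the 5 tumors labelled MMTV-Myc had one, a count that allows a share of up to 52.2%. Myc lay in a bin gained in more tumors than 97.9% of 2057 bins, while the median bin was gained in 6 tumors and the highest in 23. This bin includes the Myc probe, so its rank is not independent of the short segments at Myc described below. Listed neighbours of Myc on chromosome 15 were gained in 11 to 14 tumors. Leaving out the 4 arrays of the nearly identical pairs, 14 tumors had a gain at Myc. Leaving out the 5 arrays labelled MMTV-PyMT on slides 1 to 5, 12 of 35 tumors had one.

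The whole chromosome was gained in most of these tumors. Of the 16 tumors with a gain at Myc, 11 had at least 90% of the chromosome 15 probes gained, namely the 4 MMTV-HRas and 3 BRCA1-/-;p53+/- tumors with a gain, the MMTV-Her2/neu tumor H2N61, the C3(1)-Tag tumor C3TAg_7RPT, and PyMt_3 and PyMt341. The segment means at Myc in the 4 MMTV-HRas tumors were 0.79, 0.62, 0.43 and 0.39, and Hras_An2_3, the tumor of that model without a gain, read -0.06. The BRCA1-/-;p53+/- tumors Brca_54, Brca_14 and Brcap53_682 had 0.52, 0.34 and 0.24. The Myc probe was close to its surroundings in some of these tumors, as in Hras_An1_3 with 0.56 against 0.58 and in Brcap53_682 with 0.32 against 0.30. It stood above them in PyMt341 with 1.78 against 0.53, in PyMt_3 with 0.79 against 0.41 and in Hras_An3_3 with 1.20 against 0.89, and below them in Brca_14 with 0.13 against 0.41. PyMT_11570 had a gain over 39.0% of the chromosome with a segment mean of 0.23.

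The 4 remaining gains covered less than 10% of chromosome 15, in segments of 5 or 6 probes. They were P53_5851 (segment mean 1.11 over 6 probes), PyMt342 (0.89 over 6), PyMt435 (0.85 over 5) and PyMt427 (0.78 over 5). With the Myc probe left out, the same segments averaged 0.17, 0.55, 0.23 and 0.33. The mean thus fell below the threshold in P53_5851 and stayed above it in the other 3. The bounds of these segments were set with the Myc probe included, so this is no independent check on the gain. The median of the 10 nearest probes was 0.28 in PyMt342, 0.12 in PyMt427 and 0.0048 in PyMt435. Calling the gain by the median of the 10 nearest probes, without the Myc probe, gave 15 tumors, 12 of them shared. P53_5851, PyMt427, PyMt435 and PyMT_11570 were then not called, and C3TAg_8_RPT, P53_1573 and Wnt_4635 were added. The tumor just under the threshold was C3TAg_8_RPT with a segment mean of 0.197, and the lowest called value was 0.229.

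Chromosome 15 was gained whole in 12 of the 40 tumors (30.0%, interval 16.6 to 46.5%), as many as chromosome 6 and more than any other autosome, and was lost whole in 0. The added tumor was P53_1573. In it the Myc probe read 0.65 and the median of the 10 nearest 0.57, but the 5-probe segment that holds Myc had a mean of -0.64 because it includes the probe at -5.64. P53_8546 was called lost at Myc in the same manner, with a segment mean of -1.05. These were the only 2 losses at Myc. Without the 4 arrays of the nearly identical pairs, the whole chromosome was gained in 10 tumors, and without the 5 arrays labelled MMTV-PyMT on slides 1 to 5 in 11. With a running median of 11 probes in place of segments the count was 7.

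**Figure D4:**
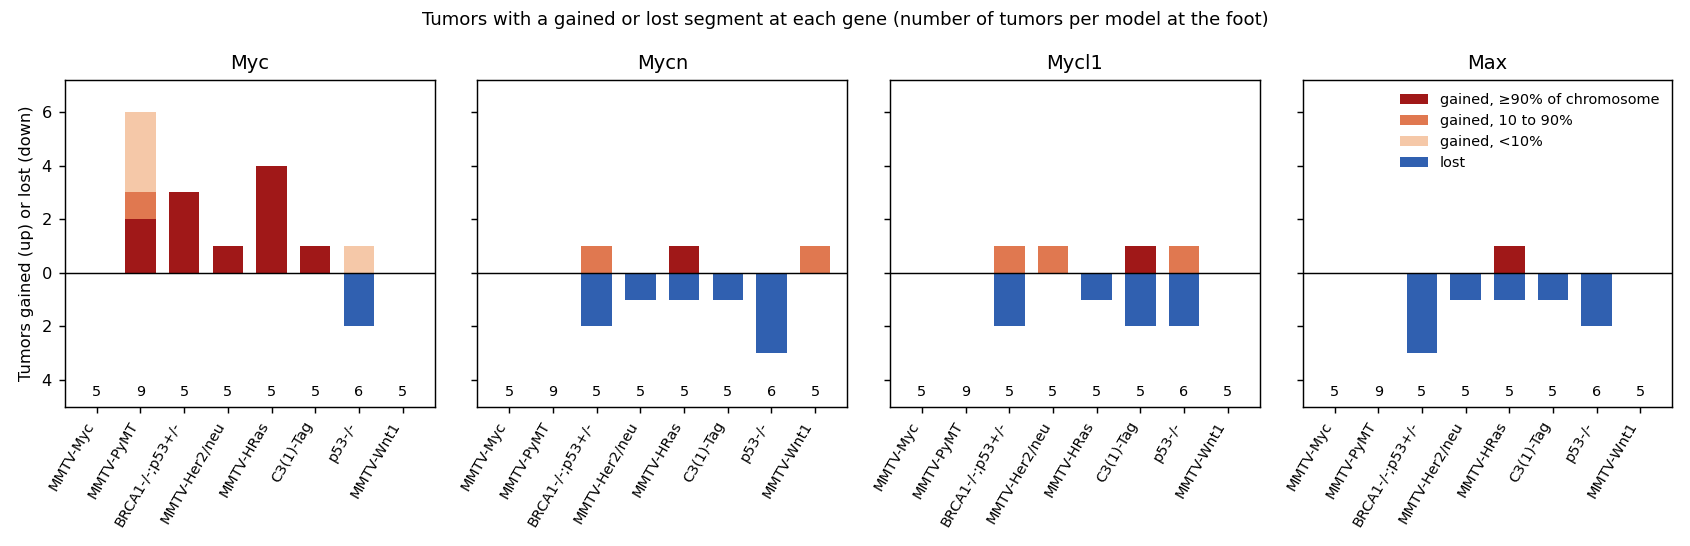
Number of tumors with a gained segment (bars above 0) or a lost segment (bars below 0) at each gene, by labelled model, with the number of tumors at the foot. The gains are shaded by the share of the chromosome's probes that were gained. Myc was gained in 6 of 9 tumors labelled MMTV-PyMT and 4 of 5 MMTV-HRas tumors, whereas Max was gained in 1 tumor and lost in 8.

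Mycn, which encodes N-Myc, the family member of neural progenitors, was more often lost than gained. It was gained in 3 of 40 tumors (7.5%, interval 1.57 to 20.4%), Brca_54 with a segment mean of 0.34, Wnt_4635 with 0.26 and Hras_An1_3 with 0.22. The probe itself read -0.07, 0.05 and 0.06 in these tumors, while its 10 nearest probes averaged 0.33, 0.33 and 0.13. Mycn lay in a lost segment in 8 tumors, against 12.2% of autosomal probe calls lost and 14.9% gained, and 6 of the 40 tumors lost chromosome 12 whole. The bin of Mycn was gained in more tumors than 23.8% of 2057 bins and lost in more than 80.9%. The losses were in 3 p53-/-, 2 BRCA1-/-;p53+/-, 1 MMTV-Her2/neu, 1 MMTV-HRas and 1 C3(1)-Tag tumor. The Mycn probe ranged only from -0.46 to 0.45 over the 45 tumors, with model means between -0.16 ± 0.13 in p53-/- (n = 6) and 0.11 ± 0.17 in MMTV-Wnt1 tumors (n = 5). In the tumors labelled MMTV-Myc it was 0.14, 0.12, 0.01, 0.00 and -0.06, all near the autosomal level. The tumor just under the gain threshold was Brcap53_682 with 0.195, and the lowest gained was Hras_An1_3 with 0.223.

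Mycl1, which encodes L-Myc, was gained in 4 of 40 tumors (10%, interval 2.79 to 23.7%) and lost in 7. At a threshold of 0.3 these counts were 1 and 2, and with a running median of 11 probes 13 tumors had a loss. Over the same tumors 14.9% of autosomal probe calls were gained and 12.2% lost. The bin of Mycl1 was gained in more tumors than 29.1% of 2057 bins and lost in more than 72.0%. The Mycl1 gains were Brca_54 (segment mean 0.34), P53_5809 (0.25), C3TAg_5RPT (0.23) and H2N53 (0.22). The last pair are nearly identical arrays, and without the 4 arrays of such pairs 2 gains remained. The losses included the deepest of the 4 genes apart from the P53_8546 segment at Myc, C3TAg2 with a segment mean of -0.89 and a Mycl1 probe at -1.04. Chromosome 4 was gained whole in C3TAg_5RPT alone, in no tumor without the 4 arrays, and lost whole in 4 tumors, namely C3TAg2, C3TAg_8_RPT, Haras_An5_3RPT and P53_1573. The Mycl1 probe had a wider range than Mycn, from -1.20 to 0.86 over all tumors.

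The lowest adjusted p over the 35 tests of 5 probes in the 7 models without a Myc transgene in the label was for Mycl1 in the p53-/- tumors. The 6 values were 0.86 in P53_5809, 0.82 in P53_5817, 0.59 in P53_2979, -0.02 in P53_8546, -0.14 in P53_5851 and -0.67 in P53_1573. They overlapped with the other models. The difference of 0.48 (SE 0.18) had an adjusted p of 0.0616 (limma), and 16.2% of all probes were called in this comparison. It came under the threshold with normexp background correction (0.55, adjusted p = 0.0105, limma). The same happened when single tumors were left out, namely P53_1573 (0.66, adjusted p = 0.00998, limma), P53_5851 (0.56, adjusted p = 0.0388), Hras_An3_3 (0.51, adjusted p = 0.0431) or Brca_54 (0.50, adjusted p = 0.0474). No probe of the 4 genes was called in any of the 7 models. The shares of all probes called were 4.74% in BRCA1-/-;p53+/-, 2.65% in MMTV-HRas, 0.189% in MMTV-Wnt1, 0.0142% in MMTV-Her2/neu and 0.0071% in C3(1)-Tag tumors. Among all 40 tests of the 5 probes, 6 had an unadjusted p under 0.05, while 16% of all probes did over the 8 comparisons.

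Max, the shared partner, was the gene of the 4 with the fewest gains. It was gained in 1 of 40 tumors, Hras_An1_3 with a segment mean of 0.22 over a whole gained chromosome 12, and lost in 8. Over the same tumors 14.9% of autosomal probe calls were gained and 12.2% lost. The bin of Max was gained in more tumors than 1.51% of 2057 bins and lost in more than 80.9%. The losses were in 3 BRCA1-/-;p53+/-, 2 p53-/-, 1 MMTV-Her2/neu, 1 MMTV-HRas and 1 C3(1)-Tag tumor, with segment means from -0.46 to -0.23. The 2 Max probes gave different values in several models. In the BRCA1-/-;p53+/- tumors the probe at 77861470 read -1.08 in Brca_42, -1.01 in Brca_14, -0.42 in Brcap53_503, -0.41 in Brcap53_682 and 0.26 in Brca_54. The probe at 77869291 read -0.40, -0.05, 0.28, -0.47 and 0.09 in the same order. The first was lower in BRCA1-/-;p53+/- tumors than in the other 6 models by 0.43 (difference -0.43, SE 0.17, adjusted p = 0.139, limma), which did not pass the threshold. Without Brca_54 the difference was -0.63 and passed it (adjusted p = 0.0355, limma). In the tumors labelled MMTV-Myc the mean of the probes ran from -0.07 to 0.35.

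Mycn and Max share chromosome 12, and their losses fell largely in the same tumors. Of the 8 tumors lost at each gene, 7 were lost at both. Brcap53_682 was lost at Max only, and P53_2979 at Mycn only. At least 1 of the 4 genes was gained in 20 of the 40 tumors. Over the same tumors 14.9% of autosomal probe calls were gained, and no share for 4 positions together was computed. The 20 include the nearly identical arrays C3TAg_5RPT and H2N53, and P53_5851, whose segment fell below the threshold without the Myc probe. Of the 16 tumors with a gain at Myc, 2 also gained another of the 4, Brca_54 with Mycn and Mycl1 and Hras_An1_3 with Mycn and Max. In 3 of the 16, Brca_14, Brcap53_682 and Haras_An5_3RPT, Max or Mycn was lost.

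The 10 probes around each gene were then set against the rest of the same chromosome, more than 5 Mb away, in the 40 tumors, by a two-sided permutation test that flips signs. Around Myc the mean difference was 0.01 ± 0.19 (SD, n = 40), above 0 in 27 tumors (permutation adjusted p = 0.820 over 4 genes). This mean holds the probe that was not well above background in 4 p53-/- arrays. With only probes well above background on every array the difference around Myc was 0.0549 and passed the threshold (adjusted permutation p = 0.00224), as it did with normexp correction (0.0365, adjusted permutation p = 0.0131). It turned negative with the 20 nearest probes (-0.0251) and the 5 nearest (-0.0955). Mycn stood above its chromosome by 0.07 ± 0.13, in 32 of 40 tumors (adjusted permutation p = 0.00092). Around Max the difference was 0.10 ± 0.22, in 26 of 40 tumors (adjusted permutation p = 0.00954), and around Mycl1 it was -0.02 ± 0.14 with 20 of 40 tumors above 0 (adjusted permutation p = 0.666). Differences of this kind were frequent, since of 4059 runs of 10 probes on the autosomes 28.8% were higher and 18.6% lower than the rest of their chromosome at an unadjusted p under 0.05. With the median of the 10 probes, also added after seeing the data, the difference around Mycn was 0.05 (adjusted permutation p = 0.0548) and that around Max 0.01. With the 20 nearest probes the difference was 0.00817 around Mycn (adjusted permutation p = 0.738) and 0.0638 around Max (adjusted permutation p = 0.187). With only probes well above background the difference around Max was -0.0302. Probes around Max differed widely. Of 2 probes named Fntb, for a farnesyltransferase subunit, the first averaged 2.18 in BRCA1-/-;p53+/- and 1.60 in p53-/- tumors, and the other -0.52 and -0.64.

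**Figure D5:**
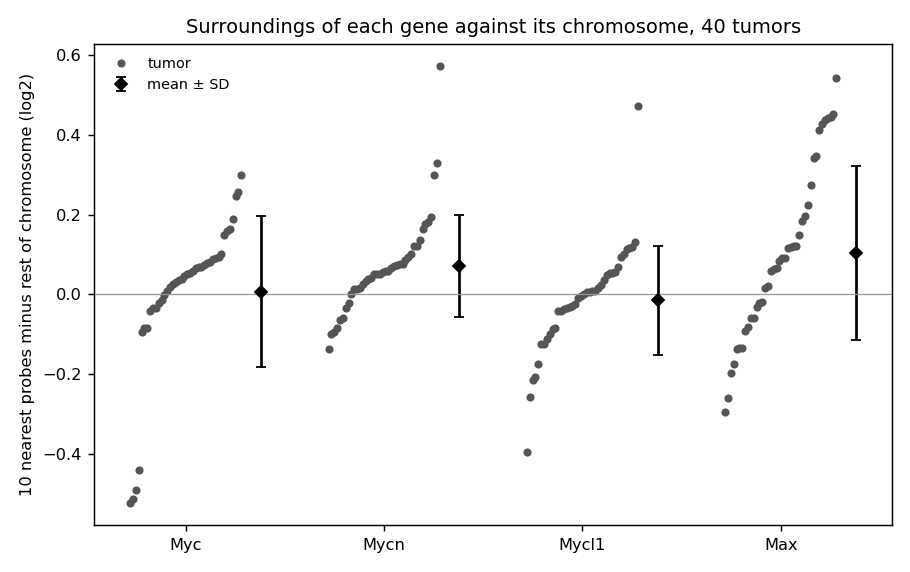
Mean log2 ratio of the 10 probes nearest each gene minus the median of the rest of its chromosome, in the 40 tumors without a Myc transgene in the label, with 1 point per tumor in rising order and the mean ± SD beside them. Mycn (mean 0.07) and Max (mean 0.10) lie above 0 on average, Myc (0.01) and Mycl1 (-0.02) near it.

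The rest of the Myc network gave 24 of 26 listed genes on the array, over 57 probes in 3 lists, and none was called in the tumors labelled MMTV-Myc. Of the 9 dimer partners and related genes, 8 had probes and only Mnt, a Max partner that opposes Myc, was called. Mnt was higher in tumors labelled MMTV-PyMT at 1 of its 2 probes by 0.32 (SE 0.08, adjusted p = 0.0357, limma) and lower in p53-/- tumors at both, by 0.50 (difference -0.50, adjusted p = 0.000211, limma) and by 0.27 (difference -0.27, adjusted p = 0.0402, limma). Median gains over this list were 6 of 40 tumors per gene, against 5 over all autosomal probes.

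Genes that act on the stability of Myc protein were called in some models. Fbxw7, the ubiquitin ligase subunit that marks Myc for degradation, was higher at 1 of 2 probes in BRCA1-/-;p53+/- tumors (0.70, SE 0.18, adjusted p = 0.0142, limma). Skp2, another ligase subunit that acts on Myc and itself lies on chromosome 15, was higher in MMTV-HRas tumors (0.53, adjusted p = 0.0279, limma) and lower in p53-/- tumors (-0.42, adjusted p = 0.0158, limma) at the same probe, 1 of its 3. In MMTV-HRas tumors 594 of 42235 probes were called higher, but 0 with normexp correction. With slide or scan date as a random block it was 0 of 40728 probes tested, so the Skp2 call there was lost. Of 10 cofactors, 9 were on the array. Among them the helicase gene Ruvbl1 was higher at 1 of 2 probes in MMTV-HRas tumors (0.52, adjusted p = 0.0414, limma) and Ep400, of the same chromatin complex, at 1 of 3 probes in p53-/- tumors (0.77, adjusted p = 0.00672, limma). Like that of Skp2, the Ruvbl1 call in MMTV-HRas tumors was absent with either block and with normexp correction. Wdr5, which brings Myc to chromatin, was higher at 1 of 12 probes each in BRCA1-/-;p53+/- (0.48, adjusted p = 0.0370, limma) and p53-/- tumors (1.01, adjusted p = 0.00253, limma). Most of the calls in these lists fell in p53-/- and BRCA1-/-;p53+/- tumors, the models with the largest shares of probes called over the whole array. Of the 24 genes, 3 were called higher and 2 lower in p53-/- tumors, at 1 or more probes each. In BRCA1-/-;p53+/- tumors 2 were higher and 1 lower, and in MMTV-HRas tumors 2 were higher. Over the whole array 16.2%, 4.74% and 2.65% of probes were called in these models. The shares are per probe, and no excess of calls in the lists over them was tested.

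Along chromosome 15 the gains reached well beyond Myc. Trib1, Sqle and Nsmce2, on the near side of Myc toward the start of the chromosome, were gained in 14 of the 40 tumors each, Asap1 in 13 and Wisp1 in 11, and Skp2 near the start of the chromosome in 14. All 6 lay above the median of 5 tumors over all autosomal probes. Between models, Sqle and Asap1 were lower at 1 of 2 probes each in p53-/- tumors (-0.52, adjusted p = 0.0106, and -0.54, adjusted p = 0.00959, limma), and Wisp1 was higher at 1 probe each in MMTV-HRas tumors (0.45, adjusted p = 0.0465, limma) and p53-/- tumors (0.38, adjusted p = 0.0372, limma). With slide or scan date as a random block, 0 of 40728 probes tested were called higher in MMTV-HRas tumors, so the Wisp1 call there was lost. On chromosome 12, Ddx1, a neighbour of Mycn that is often amplified with it in neuroblastoma, was gained in 3 tumors and lost in 8, the counts found at Mycn. Its 2 probes went in opposite directions in p53-/- tumors (-0.30, adjusted p = 0.0426, and 0.44, adjusted p = 0.0245, limma).

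The transgenes or targets of other models were read in the same way. The Wnt1 probe was higher in MMTV-Wnt1 tumors, 1.06 ± 0.57 (SD, n = 5), with a difference of 0.92 (SE 0.15, adjusted p = 0.0043, limma), although Wnt_4635 read 0.07. The Hras1 probe read 2.76 in PyMt341 and averaged -0.03 in MMTV-HRas tumors. The probes at Erbb2, the mouse counterpart of Her2, averaged 0.12 and -0.04 in MMTV-Her2/neu tumors. The probes at Trp53 averaged -0.10 ± 0.46 and -0.28 ± 0.22 (SD, n = 6) in p53-/- tumors, and neither was called. A transgene of another species or a cDNA need not hybridize to these probes.

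Profiles across the 45 tumors were compared by Pearson's r, as a description over arrays that share slides and references. Outside chromosome 15, the names closest to Myc were AK143349 (r = 0.70), Pla2g7 (0.68) and Apba1 (0.67). For Mycn they were Crk (0.67), Casc3 (0.64) and Kif9 (0.63), for Mycl1 Txndc11 (0.54), Defb14 (0.53) and Abhd14b (0.51), and for Max Sema3b (0.67), Eif2c1 (0.67) and BC043934 (0.64). On their own chromosomes the closest were Tg for Myc (0.82), Acp1 for Mycn (0.84) and AK018667 for Mycl1 (0.93).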

How the data were processed

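The authors hybridized tumor and reference DNA on Agilent oligonucleotide arrays and extracted signals with Agilent Feature Extraction (version 9.5.1.1 per the file headers, 10.7 per the labels). Per the file headers, the deposited LogRatio is log10 of Cy5 over Cy3, computed from processed intensity values that were background-subtracted and dye-normalized. The deposited series table of copy number intervals gives a mean log2 ratio per interval and was used only for direction and as an alternative. The LogRatio was turned to log2 of Cy3 over Cy5, outlier spots were dropped, spots of a probe averaged, and each array centred on its autosomal median. Position is mm8 as deposited. Segments came from circular binary segmentation (split statistic over 6, at least 5 probes), written in Python 3.11.15 with numpy 2.4.6 and numba 0.67.0. Each model was set against the mean of the others by limma (version 3.58.1, R 4.3.3) on 45 arrays, with Benjamini-Hochberg adjustment over 42235 probes. Permutation tests used scipy 1.17.1 or exact enumeration, or 100000 sign flips. Scripts were tested on simulated data. The 5 member probes, the listed genes with a called probe and the 3 names most alike to the 10 probes nearest each member were named. Some listed genes are not reported here. The members and lists were chosen with earlier results of these data known. Columns with values of other samples numbered 0. The number of arrays limits the precision, and depth has no meaning here.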

Additional observations from a re-analysis of the deposited data

Results flagged for a closer look

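Each model of 4 to 10 tumors was searched for a tumor standing apart from the rest, by the gap to its nearest neighbour over the range of the group, in 64 combinations of gene, measure and model. This found 2, no more than chance gives, at about 1 in 20. The Myc probe of P53_5851 was 5.80, while the other 5 p53-/- tumors lay between -0.68 and 0.65. The mean of the 10 probes nearest Mycn was -0.12 in C_Myc_04004021, and between 0.00 and 0.05 in the other 4 tumors labelled MMTV-Myc.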

How the results depend on the processing

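No paired analysis was possible because replicate numbers only follow the order of the labels, apart from the slides that hold both an MMTV-Myc and an MMTV-PyMT array, whose differences stand above. With a single Myc probe and wide spacing, a narrow change at Myc has no second probe behind it. None of the 5 probes was called in the tumors labelled MMTV-Myc under any of 14 alternatives or with any of 45 arrays left out. In the other 7 models the count of 0 called probes became 1 with normexp correction, 1 with loess, 1 without the 5 slide-sharing MMTV-PyMT arrays, 2 without P53_5851, and 0 to 2 with each array left out. Those calls were Mycl1 in p53-/- tumors (adjusted p = 0.0105 with normexp, 0.0388 without P53_5851 and 0.0479 without the 5 arrays, limma), Max in p53-/- tumors with loess (0.0447, limma) and Myc in MMTV-PyMT tumors without P53_5851 (0.0119, limma). Without Brca_54, Max was called in BRCA1-/-;p53+/- tumors (-0.63, adjusted p = 0.0355, limma). Cy5 over Cy3, the direction in the labels, turned every sign. The Myc probe difference became 0.25 for MMTV-Myc and -1.07 for MMTV-PyMT, the excess over the 10 nearest probes 0.33 for Myc, -0.0505 for Mycn, 0.0809 for Mycl1 and -0.15 for Max, and the 10 nearest probes against the chromosome -0.00692, -0.0717, 0.0150 and -0.10. Gains then numbered 2, 8, 7 and 8, and whole gains 0 for chromosome 15, 6 for 12 and 4 for 4. The Mycn excess was -0.0218 with the 5 nearest probes. Against the chromosome, Myc was 0.0365 with normexp (adjusted permutation p = 0.0131) and 0.0549 with bright probes only (0.00224), both past the threshold, but -0.0251 with 20 probes, -0.0955 with 5, -0.0162 without the 5 MMTV-PyMT arrays, and -0.00058 to 0.0205 with each array left out. Mycn fell short with 20 probes (0.00817) and the median (0.0519), and Mycl1 was 0.00568 with 20 probes. Max was 0.0156 with normexp, -0.0302 with bright probes only, 0.0638 with 20 probes, 0.0514 with 5 and 0.00683 with the median. Mycl1 gains numbered 2 with centring on the density peak and without the nearly identical pairs. Max gains numbered 2 with the density peak and with the deposited intervals, and 0 with normexp. At a gain threshold of 0.3, gains numbered 1 for Mycn, 1 for Mycl1 and 0 for Max. Whole gains of chromosome 15 numbered 7 with a running median. Those of chromosome 12 numbered 0 with normexp, a threshold of 0.3, a split statistic over 5 and a running median, and 2 with the deposited intervals. Those of chromosome 4 numbered 0 with the density peak, a threshold of 0.3, a running median and without the pairs, 2 with loess and the deposited intervals, and 3 with normexp and with 75% of probes as whole. Losses of Mycl1 (7) numbered 13 with a running median and 2 at a threshold of 0.3, where losses of Max (8) numbered 5. Losses of Myc (2) numbered 1 with normexp and with bright probes only, and 4 with loess. With Cy5 over Cy3 losses numbered 16, 3, 4 and 1. With each array left out, gains numbered 15 to 16, 2 to 3, 3 to 4 and 0 to 1, and whole gains 11 to 12, 0 to 1 and 0 to 1. Over 13 alternatives the adjusted permutation p of the probes around a gene against the chromosome ran from 0.00224 to 0.946 for Myc, 0.00076 to 0.738 for Mycn, 0.279 to 0.738 for Mycl1 and 0.00844 to 0.754 for Max. The causes were not tested.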
